A study of Rattus norvegicus with 21 samples.

Results

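The genes Nfkbia, Socs3, Zfp36 and Cebpb were followed across 21 two-channel arrays of rat spinal cord RNA. All probes annotated to these genes were taken, which gave 1 probe each: 4 of the 4148 named genes measured, and 4 of the 5376 probes in the table. Each array set a sample against pooled culture RNA, and the arrays fell into 7 groups of 3. CKIN, MP and acetaminophen (Acet) groups were cord cultures treated for 4 hr and compared with pooled 4 hr PBS cultures. Indomethacin (Indo) cultures of 4 hr were compared with pooled ethanol (ETOH) cultures, and NS398 cultures of 4 hr with pooled DMSO cultures. The Injured 4 hr group held unpooled PBS cultures of 4 hr and the Uninjured group freshly dissected cord, both against the PBS pool. CKIN and MP are not spelled out in the labels; they are taken here, from general knowledge, to mean inhibitors of cytokines and the glucocorticoid methylprednisolone. Indomethacin inhibits both cyclooxygenases, and NS398 prefers the inducible one. The labels state no strain, age or dose, and do not say whether replicates were separate animals. The p-values therefore measure only the spread between these samples, which may be technical.

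Inflammatory signals switch on genes that later limit those same signals. Nfkbia encodes IκBα, which binds NF-κB and holds it in the cytoplasm, and is itself a direct NF-κB target. Socs3 is induced by STAT3 and blocks signalling of the interleukin 6 receptor family. Zfp36 encodes tristetraprolin, which binds AU-rich elements of cytokine messages and speeds their decay. Cebpb encodes a transcription factor of the acute phase response that acts with NF-κB on cytokine genes, and so stands nearer to the forward arm than the other members.

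The sequences before the starts of 3 of these genes are shown because matches to searched motifs lie close to the start in each. They come from RefSeq on GRCr8, where Nfkbia lies at chr6:78593844-78597307, Socs3 at chr10:103692579-103695975, Zfp36 at chr1:92796628-92799108 and Cebpb at chr3:176817005-176818436. All 4 genes matched the table of windows. The 250 bases before the start were searched for the NF-κB motif, the CArG box (the serum response factor motif), TTCNNNGAA, TGACG and TATAAA, the last on the gene's strand only and the others on both. Capitals mark the matches: the NF-κB motif for Nfkbia (read on the opposite strand), the CArG box for Zfp36, and TGACG then TATAAA for Cebpb. The Zfp36 stretch is chr1:92799109-92799208 on the minus strand, the Cebpb stretch chr3:176816905-176817004 on the plus strand, each ending at the base before the start. The Nfkbia stretch is chr6:78597084-78597113 on the minus strand, from 41 to 12 bases before a start that lies 235 bases inside the annotated gene.
Nfkbia: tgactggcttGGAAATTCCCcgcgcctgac
Zfp36: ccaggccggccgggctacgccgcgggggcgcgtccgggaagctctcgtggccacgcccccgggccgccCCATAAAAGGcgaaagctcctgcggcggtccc
Cebpb: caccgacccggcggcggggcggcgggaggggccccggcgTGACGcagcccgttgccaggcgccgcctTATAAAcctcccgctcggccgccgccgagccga

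The Nfkbia match lies 31 to 22 bases before the start and the Zfp36 match 32 to 23 bases before it. The Zfp36 match holds the letters ATAAAAG, close to TATAAA, at about the distance of the Cebpb TATAAA (33 to 28 bases). The letters alone cannot tell a CArG box from a TATA-like stretch there. Among 33469 rat windows of the same length, 6.33% held the NF-κB motif, 1.5% the CArG box, 18.2% TGACG, 8.06% TATAAA and 7.67% TTCNNNGAA. The whole Cebpb window held TGACG 3 times. The Socs3 window starts 1207 bases inside the annotated gene and is not shown. These matches describe letters and are not evidence of binding.

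The values are log2 ratios of sample over pool, centred on the median of each array, and a change is relative to that median. The direction, taken from the order of the RNAs in the titles, is likely but not stated. Array medians of the deposited ratios lay between -4.12 and 0.70, arrays held 3092 to 4916 measured probes, and arrays correlated with each other at 0.094 to 0.923. Arrays with more than 1100 missing spots are called sparse: all 3 CKIN, all 3 Indo, MP 1 and 3, Acet 1 and NS398 1, 10 in all. The others are dense. Values that equal, to 4 decimals, the log2 of a ratio of 2 whole numbers up to 20 made up 8.08% to 13.2% of the deposited values on the treatment arrays, against 0.32% to 1.19% on the Injured 4 hr and Uninjured arrays. This difference and the treatments cannot be told apart in comparisons with Injured 4 hr. Ratios carry no level of a transcript, so the labelled tissue could not be checked by the levels of its markers, and levels cannot be compared between genes. In whole cord, fewer cells of a type and less RNA per cell cannot be told apart either. Where groups are said not to overlap, the share of all probes that separate in this way was not counted.

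**Figure D1:**
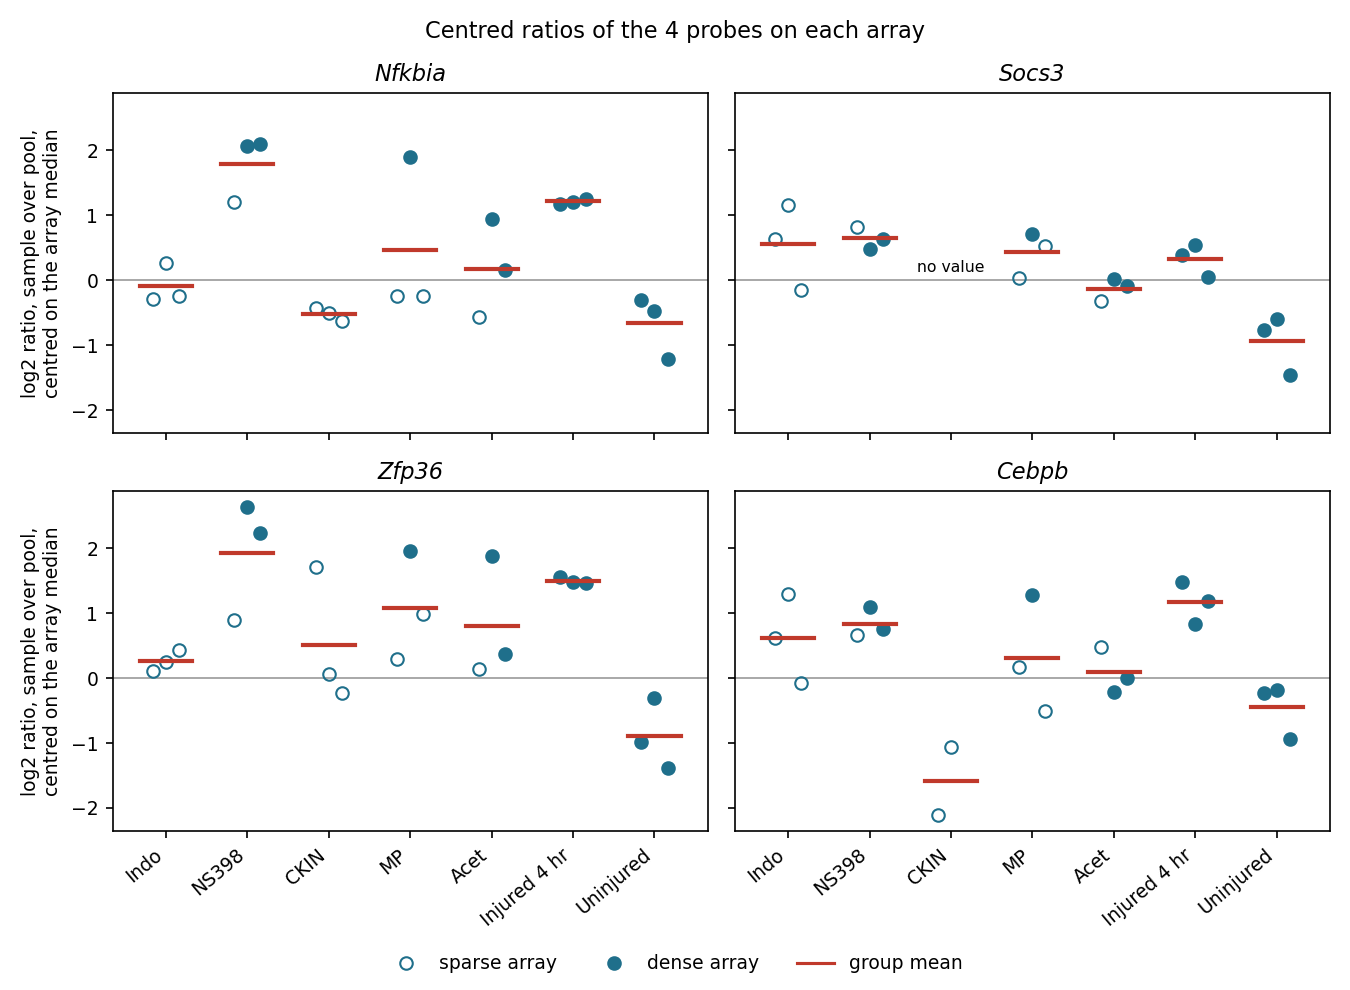
Centred log2 ratio of sample over pool for Nfkbia, Socs3, Zfp36 and Cebpb (y axis) on each array, by group (x axis). Filled points are dense arrays, open points sparse arrays, and bars group means. The 0 line is the array median. Every Injured 4 hr array lies above every Uninjured array for all 4 probes, and the share of all probes separated so was not counted. Socs3 has no value on any CKIN array, and Cebpb is lowest in CKIN.

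All 4 genes were higher in PBS cultures of 4 hr than in freshly dissected cord. The fitted change was 5.25-fold for Zfp36 and 2.41-fold for Socs3, the ends of the range among the 4. For Nfkbia the centred log2 ratios were 1.18, 1.20 and 1.26 on the Injured 4 hr arrays, against -0.31, -0.48 and -1.20 on the Uninjured arrays. The Injured 4 hr values lay close together (SD 0.040, n = 3), while Uninjured replicate 3 stood below its group. The change was 1.88 ± 0.47 on the log2 scale (SE, n = 3 per group; limma adjusted p = 0.0101), or 3.67-fold, and ranked 16 from the top among 4821 probes tested. Its group means over the PBS pool were 1.21 in Injured 4 hr and -0.66 in Uninjured. Zfp36, the decay factor, had 1.56, 1.47 and 1.46 on the Injured 4 hr arrays, against -0.99, -0.30 and -1.39 on the Uninjured arrays. It changed by 2.39 ± 0.54 (SE; limma adjusted p = 0.0048), rank 8. Its call was kept with each of the 6 arrays left out in turn.

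Cebpb, the acute phase factor, had 1.48, 0.83 and 1.18 on the Injured 4 hr arrays, against -0.23, -0.19 and -0.94 on the Uninjured arrays. The change was 1.62 ± 0.44 (SE, n = 3 per group; limma adjusted p = 0.0163), or 3.07-fold, rank 25. Its group means over the PBS pool were 1.17 in Injured 4 hr and -0.45 in Uninjured. Socs3, the brake on STAT3 signalling, had 0.39, 0.55 and 0.056 on the Injured 4 hr arrays, against -0.76, -0.60 and -1.45 on the Uninjured arrays. The gap between its nearest arrays was the narrowest of the 4, and the change was 1.27 ± 0.35 (SE, n = 3 per group; limma adjusted p = 0.0194), rank 48. In all, 4 of 4 members were called higher (adjusted p under 0.05), beside 0.809% of all probes tested. A further 13.5% of probes were called lower, and the 5th to 95th percentile of all changes ran from -1.68 to 0.91. The members and the gene lists were chosen with earlier results of these data known, so such counts are descriptions.

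In corrected ratios, from which a curve over each array and the source plate of the probe were removed, the changes were 2.77 for Nfkbia, 1.77 for Socs3, 3.16 for Zfp36 and 2.55 for Cebpb. All 4 were called there (limma adjusted p = 1.2e-05, 0.0025, 2.01e-05 and 0.00114), beside 2.49% of probes called higher. That curve was fitted on the mean Injured 4 hr ratio. Injured 4 hr values therefore lie near 0 by construction (Nfkbia -0.071, -0.025 and 0.037). The corrected changes are thus distances of Uninjured arrays from the curve, not fold changes or a separate check. Corrected comparisons of treatments with Injured 4 hr share this limit. After quantile normalization the changes were 1.68, 1.30, 2.20 and 1.41 in the same order, and none passed (limma adjusted p = 0.104, 0.452, 0.0783 and 0.392), beside 0.29% of probes called higher. Without Uninjured replicate 3 the calls of Nfkbia (1.61, adjusted p = 0.0552), Socs3 (1.01) and Cebpb (1.38) ended. The call of Socs3 also ended without Injured 4 hr replicate 1 (1.24) or 2 (1.16), and that of Cebpb without Injured 4 hr replicate 1 (1.46) or 3 (1.61).

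**Figure D2:**
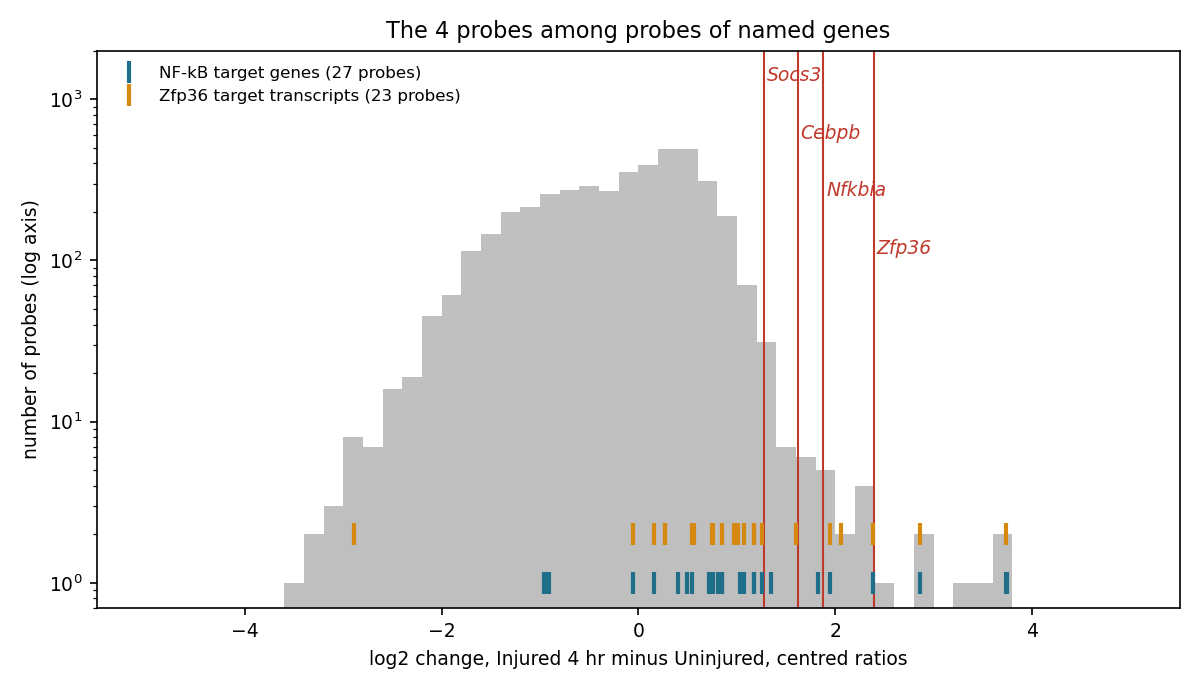
Number of probes (y axis, log scale) by log2 change of Injured 4 hr minus Uninjured in centred ratios (x axis), for 4292 probes of named genes. Red lines mark the members, from Socs3 at 1.27 to Zfp36 at 2.39, and ticks mark probes of the NF-κB target and Zfp36 target lists, whose largest rises lie beyond all 4 members.

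Of 11 measured NF-κB pathway components none passed in either direction, with a median log2 change of 0.35 beside -0.045 over all probes. Of 25 NF-κB target genes 6 rose and none fell, with a median of 0.85. They were the chemokines Ccl4 (3.75), Cxcl2 (3.73), Cxcl1 (2.86) and Cxcl10 (1.82), Ptgs2 (2.38), which encodes the inducible cyclooxygenase, and the cytokine Il1a (1.18). In corrected ratios 3 components rose, Nfkb1 (1.16), Tnfrsf1b (1.13) and Il1r2 (1.31), of which the last is a decoy receptor for interleukin 1, and 10 targets rose. Cxcl1 and Cxcl2, both neutrophil attractants, had larger fitted changes than Nfkbia.

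None of 24 JAK-STAT components passed, with a median of 0.24. The transcription factor Stat3, which drives Socs3, had a change of -0.77 and its upstream cytokine Il6 1.25, neither past the threshold. Of 19 STAT3 target genes none rose and 2 fell, the astrocyte filament Gfap (-2.11) and the fibrinogen chain Fgb (-1.70). In corrected ratios the phosphatase gene Ptpn11 (1.13) rose among the components, and Timp1 (1.97) and Junb (2.01) rose and Gfap (-1.09) fell among the targets.

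Of 20 transcripts known as targets of the Zfp36 protein, 6 rose and 1 fell, with a median of 1.00. The risers included Hmox1 (2.06), which encodes heme oxygenase, and the phosphatase Dusp1 (1.60), and Vegfa (-2.89) fell. Ptgs2, Cxcl1, Cxcl2 and Il1a stand on both target lists, so the lists are not independent. The Zfp36 relative Zfp36l1 had -0.072 and the p38 kinase Mapk14, which controls Zfp36 activity, had -0.36. Neither passed. Of 11 members of the decay and p38 list, Dusp1 rose and 3 fell, Elavl4 (-1.42), Ywhab (-1.60) and Mapk12 (-1.22).

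Among 16 relatives and partners of Cebpb, the stress factor Atf3 rose (2.17), and Atf2 (-1.09) and Tef (-1.26) fell. Cebpd, the closest relative in the acute phase response, had 0.73 and did not pass. Of 24 Cebpb target genes 2 rose, Ptgs2 and the granulocyte factor Csf3 (1.14). Of 21 other feedback inhibitors, Atf3 and Dusp1 rose, and the glucocorticoid-induced Sgk1 (-1.90) and Tsc22d3 (-1.31) fell.

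Cell type markers moved in the same comparison. Of 12 astrocyte markers 7 fell (median -1.74), as did 9 of 14 neuron markers (median -1.50), led by Aqp4 (-3.55) and Snap25 (-3.19). None of 9 microglia and macrophage markers (median 0.31) or of 6 neutrophil and blood markers (median 0.34) passed in centred ratios. In corrected ratios 3 of the 9 rose, Itgam (1.67), Ctss (1.07) and C1qb (0.96). The part of cell composition in the rises of the 4 genes was not tested.

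The Injured 4 hr arrays set unpooled PBS culture RNA against the PBS culture pool, which are RNAs of the same labelled kind. Nfkbia, Zfp36 and Cebpb averaged 1.21, 1.50 and 1.17 there, each called (limma adjusted p = 0.00871, 0.00487 and 0.00701), and Socs3 averaged 0.33 (adjusted p = 0.425). These 3 of 4 members called higher stand beside 20.9% of all probes called higher. Nfkbia lay at the 85.5th to 86.8th percentile of those arrays. Differences from the Injured 4 hr arrays subtract these values, and the injury changes include them. Over the same pool the Uninjured arrays averaged -0.66 for Nfkbia and -0.45 for Cebpb, neither called there. For Indo and NS398, no unpooled vehicle cultures over the same pools were analysed here.

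**Figure D3:**
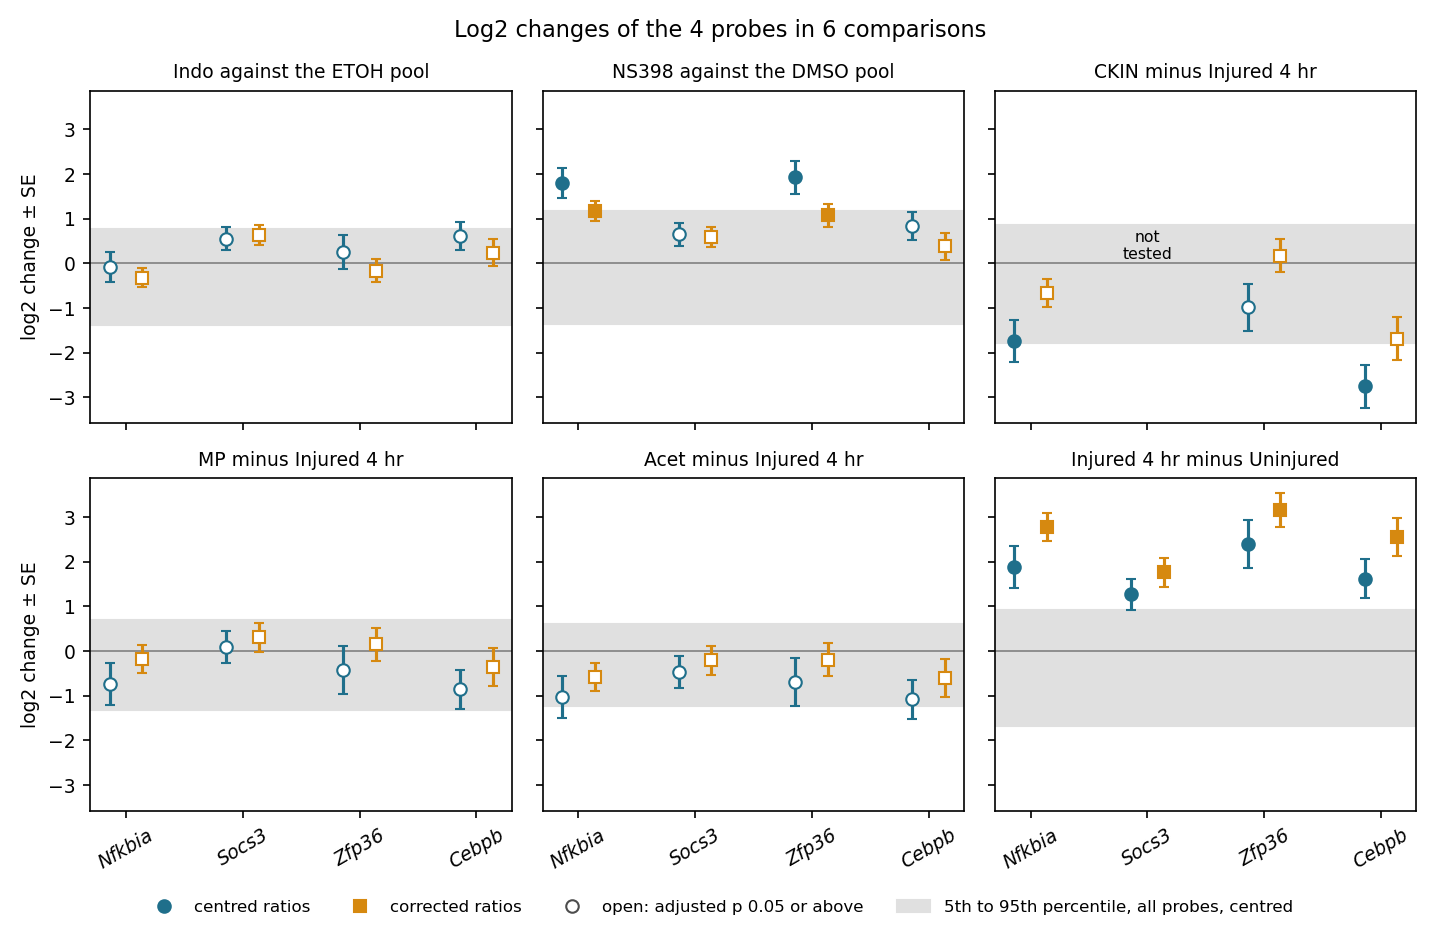
Log2 change ± SE (y axis) of the 4 probes (x axis) in 6 comparisons, in centred ratios (circles) and corrected ratios (squares). Filled symbols have an adjusted p under 0.05, and the grey band spans the 5th to 95th percentile of all probes in centred ratios. All 4 probes lie above the band in Injured 4 hr minus Uninjured, and Cebpb lies below it in CKIN minus Injured 4 hr.

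In CKIN cultures Cebpb and Nfkbia were lower than in Injured 4 hr cultures, Zfp36 was not called, and Socs3 had no value. Cebpb had -2.11 and -1.06 on CKIN replicates 1 and 2 and no value on replicate 3, against 1.48, 0.83 and 1.18 on the Injured 4 hr arrays. Both CKIN values lay below every Uninjured array too. The change was -2.75 ± 0.49 (SE, n = 2 and 3; limma adjusted p = 0.00292), 6.74-fold lower, and ranked 3732 from the top of 3735 probes. Nfkbia had -0.42, -0.51 and -0.62 in CKIN, against 1.18, 1.20 and 1.26 in Injured 4 hr, with a gap between the groups wider than either range. The change was -1.73 ± 0.47 (SE, n = 3 per group; limma adjusted p = 0.0175), or 3.32-fold lower.

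These 2 of the 3 members tested were called lower, beside 18.6% of all probes, and the median of all changes was -0.38. In corrected ratios 0.455% of probes were called lower and no member was: Cebpb changed by -1.68 (limma adjusted p = 0.0989), Nfkbia by -0.66 (adjusted p = 0.309) and Zfp36 by 0.17. With the array set as a block the values were -2.38 for Cebpb (adjusted p = 0.102) and -0.35 for Nfkbia (adjusted p = 0.801). All CKIN arrays were sparse and all Injured 4 hr arrays dense, so no array set holds both groups. The Nfkbia call also ended without any single Injured 4 hr array, at adjusted p from 0.0503 to 0.0611.

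Zfp36 had 1.71, 0.056 and -0.23 in CKIN, against 1.56, 1.47 and 1.46 in Injured 4 hr. CKIN replicate 1 stood above the Injured 4 hr arrays and the others below them. The change was -0.99 ± 0.53 (SE, n = 3 per group; limma adjusted p = 0.198), and without CKIN replicate 1 it was -1.58 (adjusted p = 0.0413). On that replicate Zfp36 stood at the 99.0th percentile of the array while Cebpb stood at the 2.19th.

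Socs3 was blank on all 3 CKIN arrays and measured on all 18 others. Of 2004 probes with a value on every array outside CKIN, 6 (0.299%) had none on any CKIN array: Socs3, Alox5, Dab2, Hmga1, Slc4a7 and Tnfsf4. By the same count 3 of 1749 probes were blank on all Indo arrays and 0 of 1709 on all NS398 arrays. The spot filter is not given in the sources used here, so a blank may mean a dim spot, a rejected spot or another cause, and no change of Socs3 in CKIN is given.

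For the pathway lists in CKIN, counts of genes that fell stand beside the same 18.6% of all probes called lower. Of 22 NF-κB targets 6 fell and none rose, among them Ccl4 (-2.30), Cxcl1 (-2.26) and the cytokine Il1b (-2.17 on the probe that passed). The other Il1b probe (-0.42), Tnf (-1.51) and Il6 (0.19) did not pass (limma adjusted p = 0.53, 0.0757 and 0.849). Nfkb1 (-1.66), the NF-κB subunit, and Il1r2 (-1.90) fell among 8 components. Il6st (-1.53), the shared receptor chain that Socs3 blocks, and Cntfr (-1.08) fell among 20 JAK-STAT components. Of 16 STAT3 targets 5 fell, among them Timp1 (-2.04), and Fga (1.22) rose. Cxcl1, Tnf, Il6, Il1r2, Fga and the Il1b probe that did not pass had values on 2 of 3 CKIN arrays. Of 16 Zfp36 target transcripts 6 fell, of 14 Cebpb targets 5 fell, and Zfp36l1 fell by 1.27. In corrected ratios the one gene of these lists to pass was the Cebpb target Ptges (-1.97), which encodes the terminal prostaglandin E synthase. Markers fell too, 5 of 8 of myelin, 4 of 14 of neurons, 3 of 12 of astrocytes and 2 of 7 of microglia and macrophages, and their part was not tested.

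CKIN set directly against the other treatments avoids the Injured 4 hr arrays. Cebpb differed by -1.90 from MP (95% interval -2.91 to -0.89; limma adjusted p = 0.096) and by -1.68 from Acet (-2.69 to -0.67; adjusted p = 0.11). Neither passed. No probe at all was called between CKIN and MP in limma, where 15.2% of 3632 had an unadjusted p under 0.05. Nfkbia differed by -0.99 from MP (-1.95 to -0.024; adjusted p = 0.315) and by -0.70 from Acet (-1.66 to 0.27; adjusted p = 0.447). Zfp36 differed by -0.57 from MP and by -0.28 from Acet, with intervals that span 0. The Nfkbia difference was -0.28 from MP without MP replicate 2 and -0.31 from Acet without Acet replicate 2. Of all probes 0.16% were called between CKIN and Acet.

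In MP cultures no member passed against Injured 4 hr, beside 2.05% of all probes. Nfkbia had -0.24, 1.89 and -0.24 in MP, against 1.18, 1.20 and 1.26 in Injured 4 hr, and changed by -0.74 (95% interval -1.71 to 0.23; limma adjusted p = 0.416). Zfp36 had 0.29, 1.95 and 0.99 in MP, against 1.56, 1.47 and 1.46 in Injured 4 hr (change -0.42, interval -1.53 to 0.69). Cebpb had 0.17, 1.28 and -0.51 in MP, against 1.48, 0.83 and 1.18 in Injured 4 hr (change -0.85, interval -1.76 to 0.052). MP replicate 2, the one dense MP array, gave the highest MP value of each of these genes. Without it Nfkbia changed by -1.45 (limma adjusted p = 0.0185) and Cebpb by -1.34 (adjusted p = 0.0369), both past the threshold. On the dense arrays alone, which include 1 MP array, the same changes were 0.68 and 0.12.

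Socs3 had 0.042, 0.72 and 0.53 in MP, against 0.39, 0.55 and 0.056 in Injured 4 hr, and the groups overlapped. Its change was 0.099 (95% interval -0.64 to 0.84; limma adjusted p = 0.918). Among genes of these pathways, 1 of 24 NF-κB targets fell, Il1a (-1.30), and 1 of 20 Cebpb targets, Ptges (-2.28). In corrected ratios Ptges stayed called (-2.08) and no NF-κB target was. None of 20 other feedback inhibitors passed.

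In Acet cultures no member passed either, beside 1.31% of all probes. Nfkbia had -0.57, 0.95 and 0.16 in Acet, against 1.18, 1.20 and 1.26 in Injured 4 hr. The change was -1.04 (95% interval -2.01 to -0.063; limma adjusted p = 0.33). Cebpb had 0.48, -0.21 and -0.0054 in Acet, against 1.48, 0.83 and 1.18 in Injured 4 hr (change -1.08, interval -1.98 to -0.17; limma adjusted p = 0.252). Socs3 had -0.32, 0.014 and -0.094 in Acet, against 0.39, 0.55 and 0.056 in Injured 4 hr (change -0.46, interval -1.20 to 0.27). Zfp36 had 0.14, 1.88 and 0.37 in Acet, against 1.56, 1.47 and 1.46 in Injured 4 hr (change -0.70, interval -1.81 to 0.41), and Acet replicate 2 overlapped with Injured 4 hr. Plau (-1.45), a protease gene under NF-κB control, fell among 26 targets, and Ptges (-2.61) fell among 24 Cebpb targets. In corrected ratios Ptges stayed called (-2.48) and no NF-κB target was.

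No member passed between MP and Acet. The differences of MP minus Acet were 0.29 for Nfkbia (95% interval -0.68 to 1.26), 0.56 for Socs3 (-0.18 to 1.30), 0.28 for Zfp36 (-0.83 to 1.39) and 0.23 for Cebpb (-0.68 to 1.13). The intervals leave room for differences of more than 1 log2 unit. Of 4378 probes 1 (0.0228%) was called there, which was no member.

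Group means of centred ratios over the shared PBS pool give an order of the groups. For Nfkbia they were -0.52 in CKIN, 0.47 in MP, 0.18 in Acet, 1.21 in Injured 4 hr and -0.66 in Uninjured. For Zfp36 they were 0.51 in CKIN, 1.08 in MP, 0.80 in Acet, 1.50 in Injured 4 hr and -0.89 in Uninjured. In these means both genes ranked Injured 4 hr, MP, Acet, CKIN and Uninjured from high to low. The order was not kept in every setting: without MP replicate 2 the MP minus Acet difference was -0.42 for Nfkbia and -0.16 for Zfp36, without Acet replicate 1 it was -0.081 and -0.046, and in corrected ratios CKIN minus Injured 4 hr was 0.17 for Zfp36. In deposited ratios the Injured 4 hr mean lay below those of CKIN, Acet and MP for both genes. In that order the deposited means were -0.99, -0.79, -0.094 and 0.25 for Nfkbia, and -0.70, 0.24, 0.53 and 0.86 for Zfp36. For Cebpb the centred means were -1.59 in CKIN, 0.31 in MP, 0.088 in Acet, 1.17 in Injured 4 hr and -0.45 in Uninjured, with CKIN lowest. For Socs3 they were 0.43 in MP, -0.13 in Acet, 0.33 in Injured 4 hr and -0.94 in Uninjured. Neighbours in these orders among Injured 4 hr, MP, Acet and CKIN did not pass the test where it was run. CKIN and Uninjured arrays overlapped for Nfkbia, and did not for Zfp36 (higher in CKIN) or Cebpb (lower in CKIN). That pair was not tested, and the share of all probes that separate so was not counted.

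NS398, the inhibitor that prefers cyclooxygenase 2, gave the highest ratios of Nfkbia and Zfp36 in the series. Nfkbia had 1.21, 2.07 and 2.11 over the DMSO pool, at the 96.2nd to 99.1st percentile of each array. The mean was 1.79 ± 0.33 (SE, n = 3; limma adjusted p = 0.000691), or 3.47-fold, and ranked 47 of 4485. Zfp36 had 0.90, 2.64 and 2.23, with a mean of 1.92 ± 0.38 (SE, n = 3; limma adjusted p = 0.00117), or 3.79-fold. Replicate 1, the sparse array, gave the lowest value of both.

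Socs3 and Cebpb were above the array median on all 3 NS398 arrays but did not pass. Socs3 had 0.83, 0.49 and 0.64 (mean 0.65; limma adjusted p = 0.0682) and Cebpb 0.66, 1.09 and 0.76 (mean 0.84; adjusted p = 0.0563). So 2 of 4 members were called higher, beside 10.7% of all probes. In corrected ratios Nfkbia (1.18; adjusted p = 0.00177) and Zfp36 (1.07; adjusted p = 0.0119) were called, beside 4.88% of probes. Less the Injured 4 hr arrays, which had another pool, the values were 0.58 for Nfkbia (adjusted p = 0.513) and 0.42 for Zfp36 (adjusted p = 0.707). The DMSO pool is 1 control sample whose own spread the test leaves out.

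NF-κB targets were among the genes called with NS398. Of 25 of them 10 rose and 3 fell, beside 10.7% of all probes called higher and 11.3% of all probes called lower, with a median of 0.68 beside -0.025 over all probes. The chemokine genes Ccl2 (4.14 and 3.16 on its probes) and Cxcl1 (4.05) and Ptgs2 (3.27 on its tested probe), which encodes the enzyme NS398 inhibits, had the largest values. Another Ptgs2 probe had a value on NS398 replicate 3 only, 0.12, where the tested probe had 3.39. Of 11 NF-κB components 3 rose, Nfkb1 (1.05), Tnfrsf1a (0.89) and Nfkbib (0.75), the last encoding a relative of IκBα, and Tnfrsf1b (-1.57) fell. In corrected ratios 1 component rose, Tnfrsf1a (1.11), and 2 fell, Tnfrsf1b (-1.38) and Il1rap (-0.67). Of 18 STAT3 targets 3 rose, Vim (3.15), Fgb (1.86 on 1 of its 2 probes) and Timp1 (0.99), and 4 fell, Sprr1a (-1.76), Serpina3n (-1.15), Hp (-1.12) and Fgg (-1.11). Of 19 Zfp36 target transcripts 7 rose and 1 fell, Plau (-2.10). Of 21 other feedback inhibitors 6 rose and 2 fell, among them Atf3 (1.93), Dusp1 (1.83) and the receptor inhibitor Errfi1 (1.73), while the 2 probes of Zfp36l2 went opposite ways (1.09 and -0.87). Of 16 C/EBP relatives 5 rose, among them Atf4 (1.35 and 1.40) and Ddit3 (1.23), which encodes the inhibitory CHOP. Of 24 JAK-STAT components 3 rose and 4 fell, and of 22 Cebpb targets 4 rose and 4 fell. Markers of fibroblasts and endothelium (4 of 10 higher, with Dcn at 2.99, and Kdr lower at -1.22), myelin (3 of 8), microglia and macrophages (2 of 9) and neutrophils and blood (2 of 4) were higher too, and their part was not tested. In corrected ratios the fibroblast and endothelial count stayed at 4 higher, and no neutrophil or blood marker was called. There 1 of 2 probes was higher for the myelin marker Mog (0.99) and lower for Mag (-1.97), and 1 microglia and macrophage marker was higher (C1qb, 0.54). Of 13 neuron markers 1 rose and 1 fell in centred ratios, and 4 fell in corrected ratios. Of 12 astrocyte markers 1 rose in centred ratios, and 2 fell in corrected ratios, where 8.01% of all probes were called lower.

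In Indo cultures no member was called, beside 13.3% of all probes in either direction. Nfkbia had -0.28, 0.26 and -0.24 over the ETOH pool (mean -0.085, 95% interval -0.77 to 0.60; limma adjusted p = 0.907) and Zfp36 0.11, 0.24 and 0.43 (mean 0.26, interval -0.52 to 1.04). Socs3 had 0.64, 1.16 and -0.14 (mean 0.55, interval 0.030 to 1.08; adjusted p = 0.164) and Cebpb 0.61, 1.30 and -0.081 (mean 0.61, interval -0.030 to 1.25; adjusted p = 0.217). Replicate 3 was below the array median for both genes. Without it Socs3 averaged 0.90 and passed (adjusted p = 0.0491). Of 20 JAK-STAT components 2 rose and 7 fell, Jak3 (-1.63), Cntfr (-1.60), Stat5b (-1.58) and Stat5a (-1.38) among them. In corrected ratios 1 rose, Cntf (0.76), and 3 fell, Jak3 (-1.06), Pias3 (-0.83) and Cntfr (-0.80). Dusp1 (1.01), Atf3 (0.97) and Cxcl2 (1.42) rose, Socs1, the relative of Socs3, fell by 0.71, and Cebpg (1.43) and Ddit3 (1.09) rose among 13 C/EBP relatives. Cebpg had values on Indo replicates 1 and 3 only, 0.71 and 2.145. In corrected ratios Cxcl2 (0.82), Cebpg (1.22) and Ddit3 (0.66) stayed called, while Dusp1 (0.56), Atf3 (0.61) and Socs1 (-0.0097) did not pass. Plau, the protease gene among the NF-κB targets, fell by 0.98. Of 18 Zfp36 target transcripts 2 rose, Cxcl2 and Dusp1, and 5 fell, Myc (-1.68), Lif (-1.19), Plaur (-1.05), Plau and Vegfa (-0.96).

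The 2 cyclooxygenase inhibitors were set against each other over their own pools, so the pools and the compounds cannot be told apart. Nfkbia was lower by 1.88 ± 0.47 (log2, SE) in Indo than in NS398 (95% interval -2.84 to -0.91). It did not pass (limma adjusted p = 0.0707), where 0.435% of 3680 probes passed. In corrected ratios it passed at -1.50 (limma adjusted p = 0.0211), beside 0.819% of probes called lower. Zfp36 differed by -1.66 (-2.76 to -0.56; adjusted p = 0.192). Socs3 (-0.097, interval -0.84 to 0.64) and Cebpb (-0.23, interval -1.13 to 0.67) did not pass, which does not show that the compounds act alike on them. All Indo arrays were sparse, and 2 of the 3 NS398 arrays were dense.

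Values of Nfkbia and Zfp36 differed with the array set across the 15 treatment arrays. Nfkbia had a median of -0.26 on the 10 sparse arrays (range -0.62 to 1.21) and 1.89 on the 5 dense ones (0.16 to 2.11). Zfp36 had 0.27 (-0.23 to 1.71) and 1.95 (0.37 to 2.64). Socs3 had medians of 0.53 on 7 sparse arrays and 0.49 on 5 dense ones, and Cebpb 0.17 on 9 and 0.76 on 5. The part of the array set in these values was not tested.

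**Figure D4:**
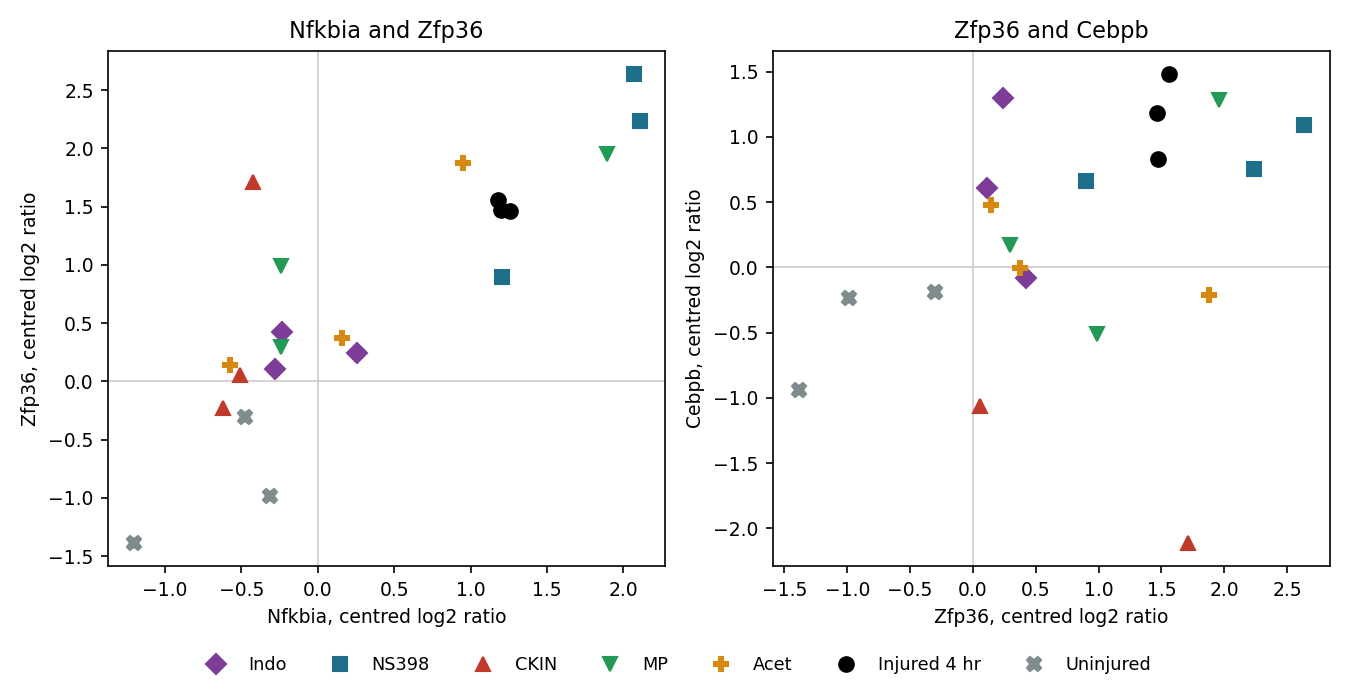
Centred log2 ratio of Zfp36 against Nfkbia (left) and of Cebpb against Zfp36 (right), one point per array, with symbols by group. In the left panel (r = 0.84 over 21 arrays) 2 of the 3 NS398 arrays lie at the upper right, Uninjured arrays at the lower left and CKIN replicate 1 above the band; the right panel has r = 0.36 over 20 arrays.

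Among the members, Nfkbia and Zfp36 followed each other most closely in centred ratios (Pearson r = 0.84 over 21 arrays), and Zfp36 and Cebpb least (r = 0.36 over 20 arrays). In corrected ratios the pair of Socs3 and Cebpb reached 0.89 over 18 arrays. These arrays share groups, pools and array sets, and the values are descriptions. With group means removed, r for Nfkbia and Zfp36 was 0.72 in centred and 0.19 in corrected ratios.

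The genes whose centred ratios were most like Nfkbia, of 2993 probes ranked, were the inducible heat shock gene Hspa1b (r = 0.89 over 21 arrays), Hmox1 (0.89 over 20), Hspa1a on its 2 probes (0.87 and 0.86) and Cxcl1 (0.86 over 20). Zfp36 had Hspa1b (0.88), Hspa1a (0.88 and 0.85), Nfkbia and Cxcl2 (0.83). Socs3 had Atf3 (0.82 over 18 arrays), Glp2r (0.79), Cxcl10 (0.77), Ptgs2 (0.75) and Cxcl2 (0.75), of 1792 probes. Cebpb had Hmox1 (0.74 over 19), Sik1 (0.73), Thra (0.72), Socs3 (0.72) and Ntf3 (0.71), of 2851 probes. In corrected ratios the nearest were Atf3 for Nfkbia (0.93), Hspa1a for Zfp36 (0.93), and Socs3 and Cebpb for each other.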

How the data were processed

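Rat spinal cord RNA was measured on 21 2-colour arrays. The authors deposited log2 ratios of sample over pool; log base and lack of normalization between arrays were read from the values. Nothing at hand records the dyes, scanner, background correction or spot filter. The number of arrays limits the precision. The members and lists were chosen with earlier results of these data known. The 53 Gapdh spots were averaged, arrays were centred on their median, and all 21 entered 1 linear model with 1 coefficient per group (limma 3.58.1, R 4.3.3). Probes with values on 2 of 3 arrays per compared group were tested, 2-sided, in 11 comparisons with Benjamini-Hochberg adjustment over all probes (threshold 0.05). Indo and NS398 were tested against 0. Corrected ratios are what a loess curve (span 0.4) against the mean Injured 4 hr ratio leaves on each array, centred per source plate of at least 20 probes. Symbols came from the deposited annotation, updated by gene identifier for 4375 of 4423 probes. Named genes are the members and the 5 probes most correlated with each over at least 18 arrays. Up to 4 passing members with the largest changes are named per list. Genes of a planned panel are named too, but not in every comparison. Marker genes and a few further passing list members were named after their values were seen. Alternatives covered scaling, filters, blocks, arrays in the fit and left-out arrays. The fit was tested on simulated data.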

Additional observations from a re-analysis of the deposited data

Results flagged for a closer look

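Nfkbia lay on opposite sides of the array median in CKIN and in NS398 cultures. It lay below the array median on every CKIN array and above it on every NS398 array, and the CKIN mean minus the NS398 mean was -2.31 (log2, centred ratios). The difference was not tested, since the groups have different pools. Nfkbia also averaged 1.21 on the Injured 4 hr arrays, where PBS culture RNA was set against the PBS culture pool. All CKIN arrays were sparse, while NS398 replicates 2 and 3 were dense.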

How the results depend on the processing

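Of 464 values under alternatives other than left-out arrays, 402 kept their side of the threshold, 51 of these with a change of sign and neither value called; unless stated, the cause of a change was not tested. In the injury comparison all 4 members stayed positive under every alternative run; calls ended with quantile normalization (Nfkbia 1.68, Socs3 1.30, Zfp36 2.20, Cebpb 1.41; 0 called), scale normalization (Socs3 0.92) and Uninjured against its pool with the sign turned (Nfkbia 0.66, Cebpb 0.45; 2 called). With arrays left out the ranges were 1.61 to 2.05 (Nfkbia), 1.01 to 1.44 (Socs3), 2.15 to 2.69 (Zfp36) and 1.38 to 1.78 (Cebpb), with 1 to 4 called. In CKIN minus Injured 4 hr, Cebpb was -2.38 with the array set as block, -1.63 centred on Gapdh, -0.87 as deposited and -1.68 corrected, and Nfkbia -0.35, -0.49, 0.19 (reversed) and -0.66, with 0 called in each. Nfkbia was -0.52 against the PBS pool, and left-out arrays gave -1.78 to -1.68 for Nfkbia and -2.92 to -2.59 for Cebpb, with 1 to 2 called; 1 was called against the pool and with all 3 arrays required. For NS398, Nfkbia and Zfp36 were 0.43 and 0.56 centred on Gapdh and 0.58 and 0.42 less the Injured 4 hr arrays, with 0 called in each; quantile normalization called 4, and left-out arrays gave 1.64 to 2.09 for Nfkbia and 1.57 to 2.44 for Zfp36 with 2 called each time. The 1 sparse NS398 array alone gave 1.21 and 0.90 with 0 called, on the assumption that it varies like the other groups, which says nothing about dependence on the array set. Acet calls were 3 as deposited (Nfkbia 0.90, Socs3 1.47, Zfp36 1.23, signs turned) and 2 after scaling; MP calls were 3 as deposited (Nfkbia 1.24 and Zfp36 1.56, reversed), 2 after scaling, 1 against the pool (Zfp36 1.08, reversed) and 0 to 2 with arrays left out; Indo calls were 1 on Gapdh, 2 after quantile normalization and 0 to 1 with arrays left out. The Injured 4 hr ratios against the PBS pool turned to -0.94, -1.83, -0.66 and -0.99 on Gapdh and -0.99, -1.87, -0.70 and -1.04 as deposited (Nfkbia, Socs3, Zfp36, Cebpb), and Nfkbia, Zfp36 and Cebpb were -0.020, -0.014 and -0.0058 in corrected ratios, which are built around those arrays. Against the centred fit, Gapdh centring moved the median of all injury changes to 1.68 and of all NS398 ratios to -1.46. Corrected ratios called 345 probes in the injury comparison and 28 in CKIN, against 690 and 748 in centred ones. Same-number correlations of replicates were -0.12 to 0.14 except in MP minus Acet (0.34, 0.45 and 0.0090). Correlations of unlike numbers were not computed, so whether replicate numbers pair the arrays was not tested. With the replicate block the injury change of Nfkbia stayed at 1.88 (limma adjusted p = 0.00522) and no member lost a call. Calls were gained by Cebpb with NS398 (0.84, adjusted p = 0.0385) and by Nfkbia in Indo minus NS398 (-1.88, adjusted p = 0.0308). The dense-only, sparse-only and less-Injured settings were chosen after seeing the data. Signal over background is unknown, so how far dim spots limit the ratios cannot be said.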
